A study of Mus musculus with 2 samples.

Results

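The C-type lectin receptors of myeloid cells were followed as 10 genes chosen by symbol, with earlier results of these data known: Clec4n, Clec4d, Clec4e, Clec7a, Clec10a, Mgl2, Clec4a1, Clec4a2, Clec4a3 and Clec12a. Of these 10 genes, 9 were analysed among 32285 genes in all, and Clec7a was not analysed here. The samples are MC38 tumours, a transplantable colon carcinoma of the mouse, collected on day 21 and enriched for immune cells on a sorter. The labels give a single group of 2 replicate libraries, made with droplet 3′ single-cell RNA-seq. No treatment, genotype, strain or age is named in them, so every comparison below is between classes of cells within the same libraries. They do not say that the replicates came from separate animals, and C1q macrophages held 1130 Xist and 0 Y-linked UMIs in replicate 1 against 0 Xist and 105 Y-linked UMIs in replicate 2. The replicates therefore did not share 1 animal, and sex and library cannot be told apart. A p-value below rests on these 2 libraries only. Its spread is how far class levels varied between them, pooled over all classes in a fit and not over the compared classes alone.

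C-type lectin receptors bind sugars, glycolipids or products of dead cells and microbes through a lectin fold. Some of them, such as Dectin-2 and Mincle, signal through the adaptor chain encoded by Fcer1g and the kinase Syk to Card9 and switch on inflammatory genes. Others, such as DCIR and MICL, carry an inhibitory motif that recruits phosphatases, and the galactose-binding MGL receptors mark certain macrophages and dendritic cells.

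Replicate 1 held 2749 barcodes and 5688000 UMIs, and replicate 2 held 2937 barcodes and 5862342 UMIs. The libraries shared 0 barcodes, and 2378 and 2801 cells were kept after filtering, with a median of 1488.5 and 1381 UMIs. Classes were gated on raw UMIs of marker genes that are not among the receptors. C1q macrophages (at least 5 UMIs of C1qa, C1qb and C1qc) numbered 1033 in replicate 1 and 701 in replicate 2, and expressed all 7 of their check markers. Their summed check markers, among them Apoe and Csf1r, reached 18083 CPM in replicate 1 and 6275 CPM in replicate 2, while the 4 monocyte markers summed to 402 and 1308 CPM. CPM scale the UMIs of a gene to 1000000 UMIs of the class. Other classes were small: monocytes (Chil3, Ly6c2, Vcan) numbered 15 and 42, neutrophils (S100a8, S100a9) 15 and 24, and dendritic cells gated on Napsa 50 and 46. Cells gated on Ccr7 numbered 12 and 10, on Siglech 14 and 8, and on Xcr1 16 and 3. Each of these classes held at least 4 of its own check markers in both libraries. The neutrophil, Ccr7, Siglech and Xcr1 cells were gated ahead of the C1q cells, a choice made after the first gates left too few of them. Their barcodes therefore also carried C1q UMIs, at 6854 and 3159 CPM in neutrophils and 4906 and 2842 CPM in Ccr7 cells. The labels call all sorted cells immune, yet 771 and 1110 kept barcodes held no Ptprc UMI, few leukocyte UMIs and 1300 and 790 CPM of 3 fibroblast collagen and matrix genes. These Ptprc-negative barcodes and the T and NK barcodes (27 and 101) served as background.

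The genes lie in 3 places, with coordinates on GRCm38 (mm10) from the GENCODE M21 annotation. Clec4a1, Clec4a3, Clec4a2, Clec4n, Clec4d and Clec4e lie in this order within 368 kb of chromosome 6, chr6:122921848-123289870, and Clec4n, Clec4d and Clec4e take up the last 60.0 kb of it. Clec12a lies farther along the same chromosome at chr6:129342691-129365303. Mgl2 and Clec10a lie side by side within 40.5 kb of chromosome 11, chr11:70130329-70170834. Mgl2 and Clec10a are close copies of each other, as are the 3 Clec4a genes, so their counts can be off where 3′ reads fit more than a single gene. This was not tested.

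Promoters are shown for 4 members that are set against each other between classes or libraries in the results, as RefSeq gives them on GRCm38.p6, from 250 bases before to 50 bases after the annotated start, read on the strand of the gene. Capitals mark letters that match, on either strand, GAGGAA (PU.1), TTGCNNAA (C/EBP), TGANTCA (AP-1) or the interferon response element, here GAAA, any 2 bases and GAAA again.
Clec4e (chr6:123289822-123290121, minus strand): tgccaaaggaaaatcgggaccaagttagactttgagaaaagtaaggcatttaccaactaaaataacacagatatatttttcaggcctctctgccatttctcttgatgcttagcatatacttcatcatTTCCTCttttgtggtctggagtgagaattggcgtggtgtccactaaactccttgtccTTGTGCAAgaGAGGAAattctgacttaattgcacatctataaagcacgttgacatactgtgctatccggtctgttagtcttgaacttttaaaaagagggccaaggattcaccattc
Clec4d (chr6:123261857-123262156, plus strand): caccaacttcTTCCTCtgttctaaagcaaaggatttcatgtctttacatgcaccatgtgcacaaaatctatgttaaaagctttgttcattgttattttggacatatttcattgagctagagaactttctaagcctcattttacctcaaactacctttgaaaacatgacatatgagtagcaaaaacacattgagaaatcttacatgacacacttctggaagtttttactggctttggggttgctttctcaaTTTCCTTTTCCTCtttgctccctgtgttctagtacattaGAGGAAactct
Mgl2 (chr11:70130107-70130406, plus strand): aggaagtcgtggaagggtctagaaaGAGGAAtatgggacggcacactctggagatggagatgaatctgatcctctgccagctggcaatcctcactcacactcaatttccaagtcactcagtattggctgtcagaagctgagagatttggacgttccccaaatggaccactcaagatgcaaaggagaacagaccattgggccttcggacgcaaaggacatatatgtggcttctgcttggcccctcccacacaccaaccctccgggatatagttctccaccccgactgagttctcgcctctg
Clec12a (chr6:129349994-129350293, plus strand): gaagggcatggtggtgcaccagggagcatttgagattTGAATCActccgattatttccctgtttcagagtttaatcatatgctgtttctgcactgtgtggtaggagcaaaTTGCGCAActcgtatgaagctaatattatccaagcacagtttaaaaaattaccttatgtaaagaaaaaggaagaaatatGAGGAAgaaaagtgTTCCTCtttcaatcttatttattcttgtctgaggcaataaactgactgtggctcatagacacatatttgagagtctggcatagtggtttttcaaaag
The Clec4e window held 2 PU.1 matches and 1 C/EBP match. The Clec4d window held 3 PU.1 matches and 1 interferon response match that overlaps a PU.1 match. The Mgl2 window held 1 PU.1 match, and that of Clec12a held 2 PU.1 matches, 1 C/EBP match and 1 AP-1 match. Of 32851 promoter windows of the same 300 bases, 28.3% held GAGGAA, 10.8% TTGCNNAA, 7.81% TGANTCA and 3.44% the interferon response element. These matches describe letters only.

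The receptors were common in the macrophages of both libraries. At least 1 of the 9 was detected in 90.2% of C1q macrophages in replicate 2 and in 73.7% in replicate 1, and at least 2 were detected in 64.9% and 39.3%. With every cell thinned to 800 UMIs, which left 606 and 838 cells, these shares were 79.2% and 56.8% for any receptor and 43.7% and 16.3% for at least 2. T and NK barcodes held any receptor UMI in 64.4% in replicate 2 and 18.5% in replicate 1, at median depths of 1190 and 1339 UMIs. Among Ptprc-negative cells 14.4% in replicate 2 and 12.1% in replicate 1 held any receptor UMI, at median depths of 1982 and 1702 UMIs, against 1228 and 1403 UMIs in the macrophages. The receptors summed to 2077 CPM in macrophages of replicate 2 and 979 CPM in those of replicate 1. Because 3′ counting takes a single tag per molecule whatever its length, levels were also ordered between genes. In replicate 2 the order was Clec4n, Clec4a1, Clec4a2, Clec4a3, Clec12a, Clec4d, Clec4e, Mgl2 and Clec10a, and the counting intervals of neighbours overlapped between Clec4n and Clec4a1, Clec4a1 and Clec4a2, Clec12a and Clec4d, Clec4d and Clec4e, and Clec4e and Mgl2. In replicate 1 it was Clec12a, Clec4a2, Clec4a1, Clec4a3, Clec4n, Clec4d, Mgl2, Clec4e and Clec10a, where neighbours overlapped between Clec4a2 and Clec4a1, Clec4n and Clec4d, Clec4d and Mgl2, and Clec4e and Clec10a.

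**Figure D1:**
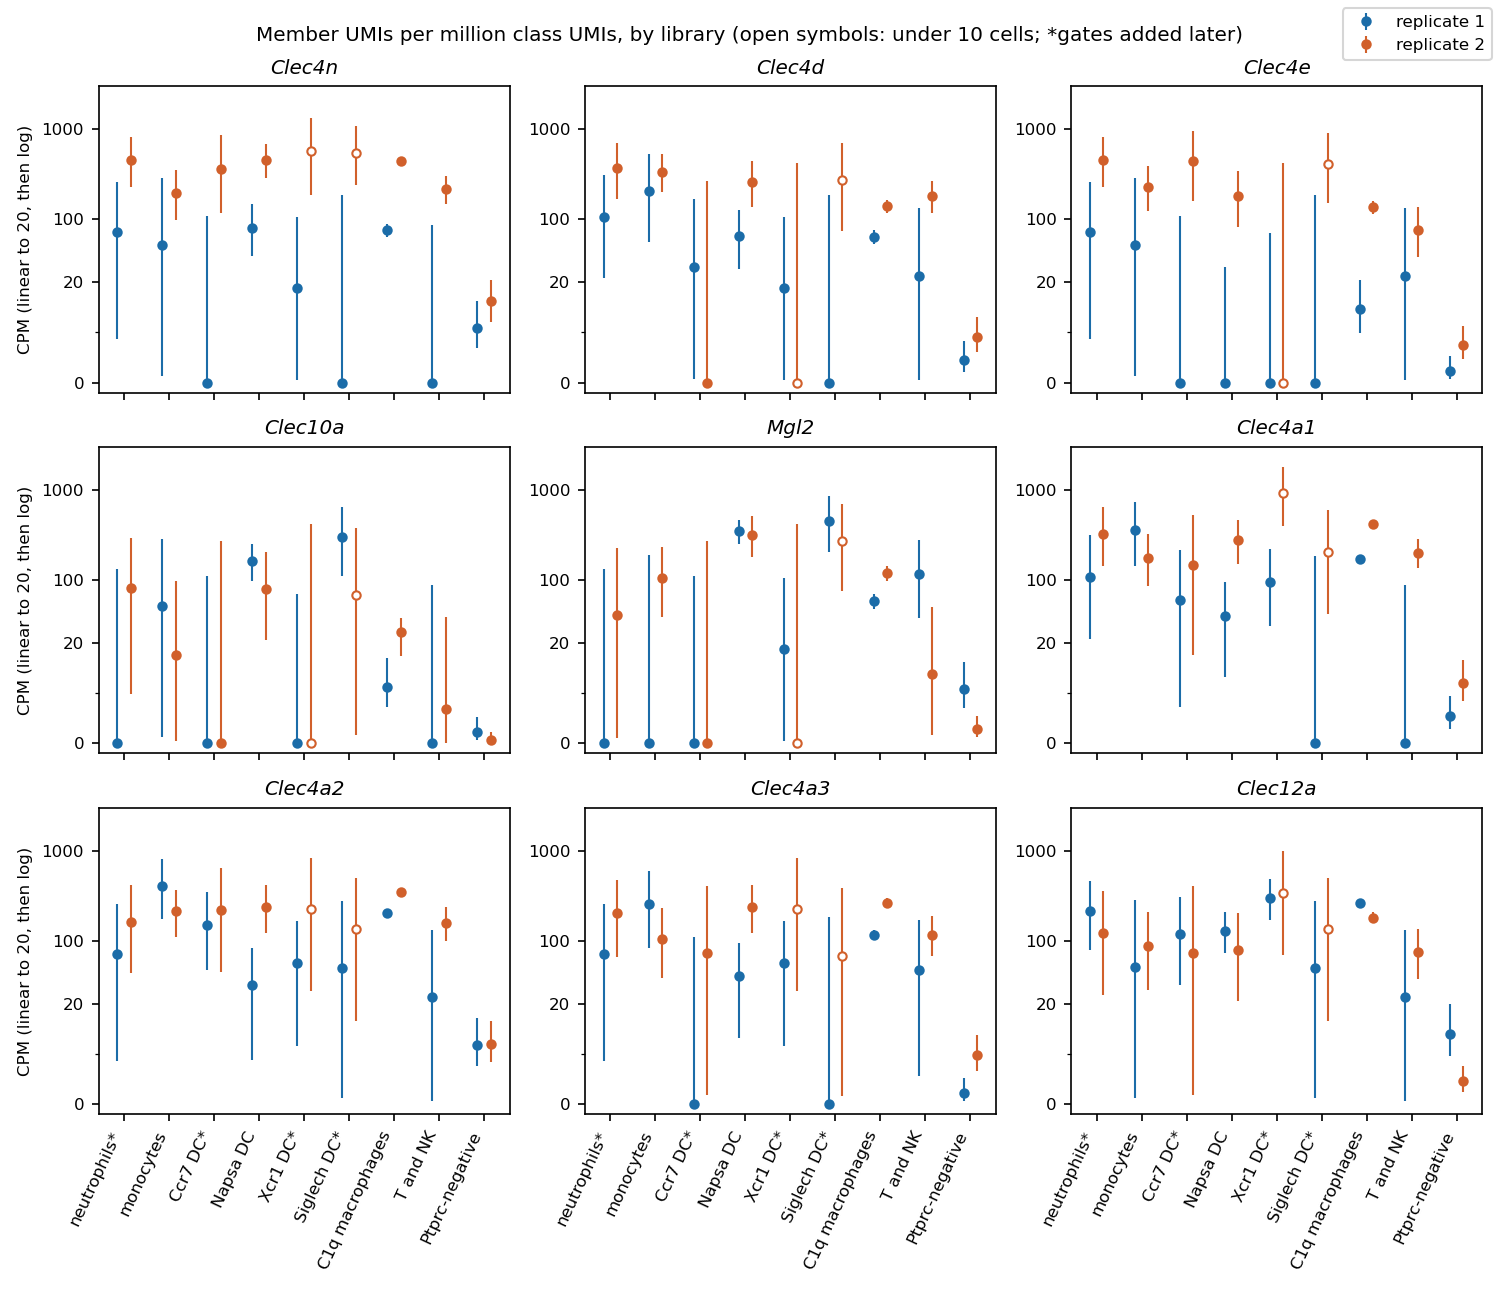
Level of each receptor in each cell class, as UMIs scaled to 1000000 class UMIs (CPM, linear up to 20 and logarithmic above), with replicate 1 in blue and replicate 2 in orange. Bars are exact 95% Poisson intervals, and open points are classes with under 10 cells. Clec4n lay higher in replicate 2 in every class shown, and in both libraries Mgl2 was highest in Napsa and Siglech cells.

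Clec4n encodes Dectin-2, an activating receptor for mannose-rich glycans of fungi. Clec4n stood at 439 CPM (450 UMIs, exact 95% Poisson interval 400 to 482) in C1q macrophages of replicate 2 and at 75.7 CPM (154 UMIs, 64.2 to 88.6) in those of replicate 1. This was 5.80 times as high in replicate 2 (counting interval 4.82 to 7.01), and the intervals of all levels here cover counting error only. Clec4n was also higher in replicate 2 in the other leukocyte classes, and whether the gap differed between classes was not tested. In Napsa cells Clec4n stood at 458 CPM in replicate 2 and 81.0 CPM in replicate 1, a ratio of 5.65 (counting interval 2.59 to 13.3). Neutrophils held 451 CPM on 11 UMIs and 71.4 CPM on 2 UMIs, a ratio of 6.32 with a counting interval of 1.38 to 58.7. Monocytes held 195 CPM in replicate 2 on 11 UMIs and 51.4 CPM in replicate 1 on 1 UMI, and the counting interval of their ratio, 0.55 to 164, spans no difference. Siglech, Ccr7 and Xcr1 cells of replicate 2 held 549, 364 and 571 CPM on 5 to 8 UMIs, and those of replicate 1 held 0, 0 and 18.9 CPM. Clec4n was detected in 41.9% of macrophages of replicate 2 and in 11.6% of those of replicate 1, or 32.3% and 5.61% when thinned. Averaged over the libraries, Clec4n was at 257 ± 257 CPM in macrophages (SD, n = 2), so the spread between libraries was as large as the mean.

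Among the background classes, Clec4n UMIs differed between the libraries in T and NK barcodes. T and NK barcodes of replicate 2 held 31 Clec4n UMIs, or 215 CPM, which is 48.9% of the macrophage level there, while those of replicate 1 held 0 UMIs, which allows up to 71.0 CPM. For comparison the C1q genes in T and NK barcodes stood at 10.9% of their macrophage level in replicate 2 and 6.01% in replicate 1, where the gate itself caps them at 4 UMIs per cell. The T and NK barcodes of replicate 2 also held 1711 CPM of the 4 monocyte markers, against 733 CPM in replicate 1. In Ptprc-negative barcodes Clec4n stood at 16.2 CPM in replicate 2 and 10.9 CPM in replicate 1. Their ratio of 1.49 had a counting interval of 0.90 to 2.54, which spans no difference. These levels were 3.70% and 14.4% of macrophage levels that themselves differed between the libraries. The part of free or mixed RNA in the library gap was not tested.

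**Figure D2:**
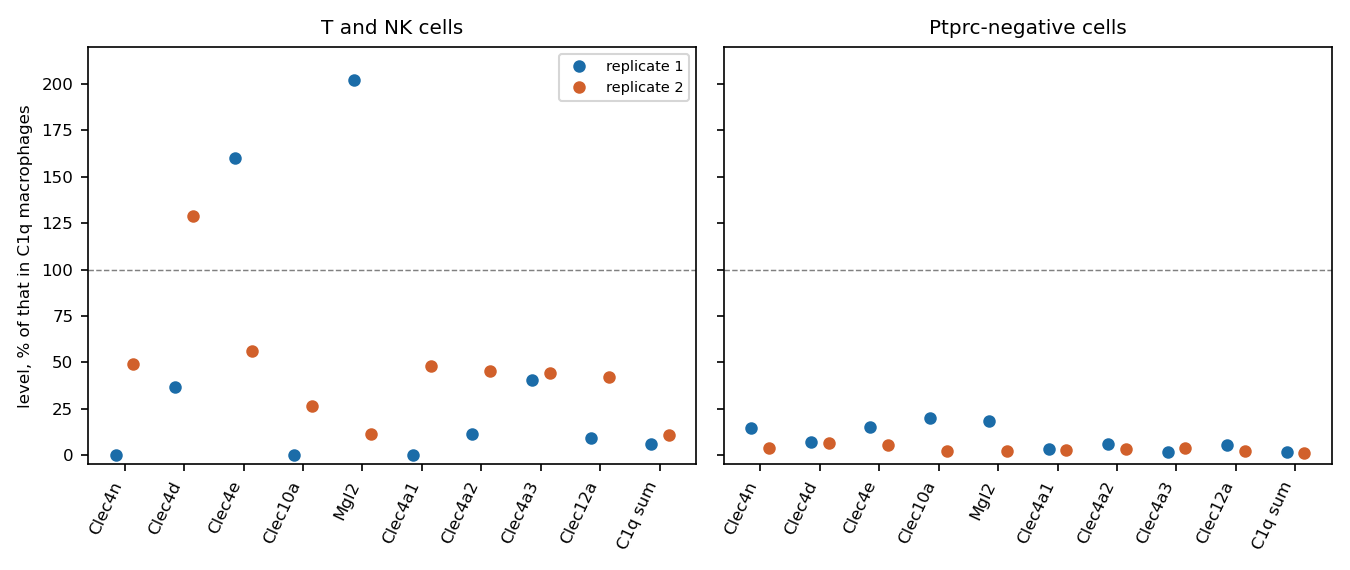
Level of each receptor, and of the 3 C1q genes together, in T and NK barcodes (left) and Ptprc-negative barcodes (right), as a percent of the level in C1q macrophages of the same library, with replicate 1 in blue and replicate 2 in orange. Clec4n stood at 48.9% in T and NK barcodes of replicate 2, while all receptors stayed at or under 20.1% in Ptprc-negative barcodes.

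Clec4d encodes MCL, an activating receptor that pairs with Mincle and Dectin-2. Clec4d stood at 140 CPM (143 UMIs, 118 to 164) in macrophages of replicate 2 and at 64.4 CPM (131 UMIs, 53.8 to 76.4) in those of replicate 1. Monocytes held 337 CPM in replicate 2 and 205 CPM in replicate 1, and neutrophils 369 and 107 CPM. Both classes thus lay above the macrophages of their own library, on 3 to 19 UMIs. In T and NK barcodes of replicate 2, whose monocyte markers (1711 CPM) exceeded their own markers (1635 CPM), Clec4d reached 180 CPM, or 129% of the macrophage level. In Ptprc-negative barcodes of replicate 2 it stood at 9.10 CPM, or 6.52% of that level. Replicate 1 showed 23.7 CPM in T and NK barcodes, on 1 UMI.

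Clec4e encodes Mincle, an inducible receptor for mycobacterial glycolipid and for a nuclear protein released by dying cells. Clec4e stood at 136 CPM (139 UMIs, 114 to 160) in macrophages of replicate 2 and at 14.7 CPM (30 UMIs, 9.95 to 21.0) in those of replicate 1. The ratio of 9.20 (counting interval 6.17 to 14.1) was the highest of the 9 receptors. Neutrophils of replicate 2 held 451 CPM on 11 UMIs and those of replicate 1 held 71.4 CPM on 2 UMIs. Ccr7 cells held 437 CPM in replicate 2 on 6 UMIs and 0 UMIs in replicate 1, which allows up to 89.2 CPM. In T and NK barcodes Clec4e stood at 56.2% of the macrophage level in replicate 2, and at 160% in replicate 1 on 1 UMI.

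The DCIR genes are named for dendritic cell inhibitory receptors, of which Clec4a2 encodes DCIR with its inhibitory motif. Clec4a1 stood at 419 CPM in macrophages of replicate 2 and 173 CPM in those of replicate 1, Clec4a2 at 350 and 203 CPM, and Clec4a3 at 266 and 116 CPM. Replicate 2 was higher by 2.43, 1.73 and 2.30 times. Of the 3 genes Clec4a3 was lowest in both libraries, while Clec4a1 led in replicate 2 and Clec4a2 in replicate 1. Napsa cells differed more between libraries, at 279, 239 and 239 CPM for Clec4a1, Clec4a2 and Clec4a3 in replicate 2 and 40.5, 32.4 and 40.5 CPM in replicate 1.

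Clec12a encodes MICL, an inhibitory receptor that senses uric acid crystals from dead cells. Clec12a was the only receptor of the 9 that stood lower in macrophages of replicate 2, at 182 CPM (186 UMIs, 156 to 210), than in those of replicate 1, at 263 CPM (535 UMIs, 241 to 286). The ratio was 0.69 (counting interval 0.58 to 0.82). It was detected in 21.7% of macrophages of replicate 2 and in 35.3% of those of replicate 1, or 12.9% and 19.7% when thinned. Barcodes gated on Xcr1, a marker of cross-presenting dendritic cells, held 302 CPM in replicate 1 on 16 UMIs and 342 CPM in replicate 2 on 3 UMIs from 3 cells. They also held 6498 and 4450 CPM of macrophage markers in replicates 1 and 2, against 1473 and 1027 CPM of their own, whose part in the Clec12a level was not tested. T and NK barcodes held 42.0% of the macrophage level in replicate 2 and 9.0% in replicate 1.

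Clec10a and Mgl2 encode MGL1 and MGL2, which bind galactose and N-acetylgalactosamine. Mgl2 stood at 119 CPM (122 UMIs, 98.9 to 142) in macrophages of replicate 2 and at 58.5 CPM (119 UMIs, 48.4 to 70.0) in those of replicate 1. Clec10a stood at 26.4 CPM (27 UMIs, 17.4 to 38.3) and 11.3 CPM (23 UMIs, 7.17 to 17.0). Siglech cells, the plasmacytoid gate, held 9 Mgl2 and 6 Clec10a UMIs in replicate 1, or 450 and 300.3 CPM. Those of replicate 2 held 4 and 1 UMIs, or 275 and 68.7 CPM, from 8 cells. The Siglech cells also carried 5 of 5 plasmacytoid markers at 5355 and 2610 CPM in replicates 1 and 2. Beside these they held 3253 and 8241 CPM of macrophage markers, 5305 and 2335 CPM of monocyte markers and 300.3 and 2198 CPM of Napsa markers, whose part in these levels was not tested. T and NK barcodes of replicate 1 held 5 Mgl2 UMIs, which is 202% of the macrophage level, and those of replicate 2 held 11.6% of it.

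The first comparison set macrophages that lean to inflammatory genes against those that lean to resident-type genes, by the larger of the UMI sums Il1b + Ly6i and Trem2 + Fcrls + Stab1. This division was chosen after stricter arms proved too small, and it gave 28 Il1b/Ly6i macrophages in replicate 1 and 310 in replicate 2, against 680 and 93 Trem2/Fcrls/Stab1 macrophages. The arms were thus very unequal between the libraries. Of 1527 tested genes, 0 passed edgeR's quasi-likelihood test at a Benjamini-Hochberg adjusted p of 0.05 (0% called), 46 had an unadjusted p under 0.05, and DESeq2 called 0. None of the 8 tested receptors passed in either tool, and 0 had an unadjusted p under 0.05. Their median log2 fold change was 0.0040, against -0.028 for all tested genes.

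For Clec4n, the Dectin-2 gene, the gap between libraries was wider than that between arms. Clec4n stood at 54.2 CPM (4 UMIs) in Il1b/Ly6i macrophages and 79.6 CPM (121 UMIs) in Trem2/Fcrls/Stab1 macrophages of replicate 1, and at 459 CPM (231 UMIs) and 485 CPM (64 UMIs) in those of replicate 2. Its log2 fold change was -0.06 ± 0.42 (SE), with an edgeR adjusted p of 0.9999. Within each arm the level was higher in replicate 2, by 8.47 times in Il1b/Ly6i macrophages (counting interval 3.26 to 31.4) and 6.09 times in Trem2/Fcrls/Stab1 macrophages (4.43 to 8.31). Over the 4 sets of macrophages, including those with equal sums and those with neither, Clec4n ranged between 335 and 575 CPM in replicate 2 and between 54.2 and 120 CPM in replicate 1, so the libraries did not overlap.

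Clec4e and Mgl2 gave the highest estimates for the Il1b/Ly6i arm without passing the test. Clec4e stood at 13.5 CPM (1 UMI) in Il1b/Ly6i and 13.2 CPM (20 UMIs) in Trem2/Fcrls/Stab1 macrophages of replicate 1, and at 169 CPM (85 UMIs) and 60.6 CPM (8 UMIs) in those of replicate 2. The difference was visible in replicate 2 alone, where the ratio was 2.79 (counting interval 1.35 to 6.66). The log2 fold change over both libraries was 1.12 ± 0.66 (SE), with an edgeR adjusted p of 0.9999. Mgl2 stood at 149 and 48.7 CPM in the arms of replicate 1 and at 113 and 98.5 CPM in those of replicate 2, Il1b/Ly6i first, with a log2 fold change of 0.98 ± 0.63 (SE). Clec10a was not tested, and its 5 UMIs in Il1b/Ly6i macrophages of replicate 2 (9.93 CPM) stood against 11 UMIs in Trem2/Fcrls/Stab1 macrophages (83.3 CPM). Replicate 1 did not show this gap, with 1 UMI (13.5 CPM) against 16 UMIs (10.5 CPM). Clec4d, Clec4a1, Clec4a2, Clec4a3 and Clec12a had log2 fold changes between -0.27 and 0.10.

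**Figure D3:**
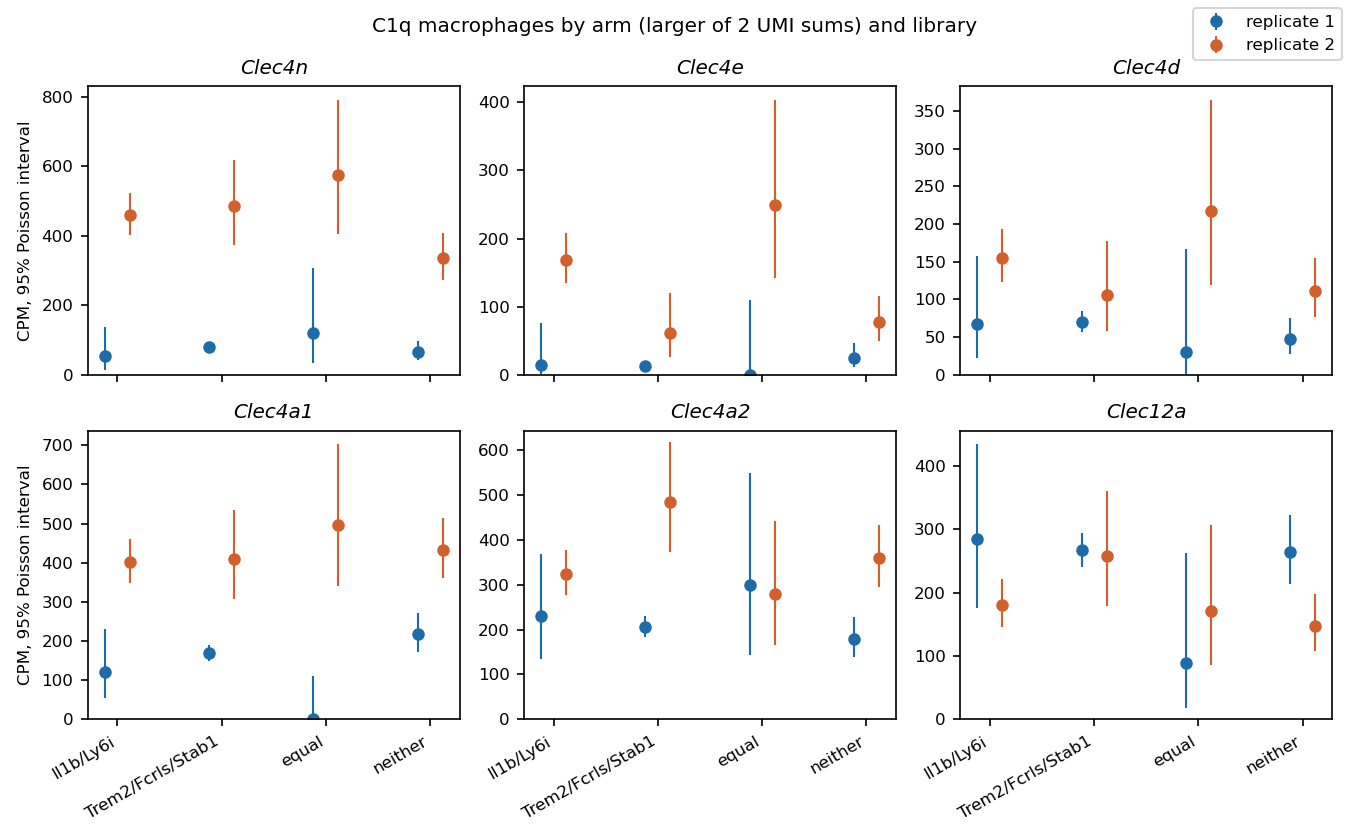
Levels of 6 receptors in the 4 sets of C1q macrophages, split by the larger of 2 UMI sums, as CPM with exact 95% Poisson intervals, for replicate 1 (blue) and replicate 2 (orange). Clec4n, Clec4a1 and Clec4a2 lay higher in replicate 2 within the Il1b/Ly6i and Trem2/Fcrls/Stab1 arms, while Clec4e in replicate 2 stood at 169 CPM in the Il1b/Ly6i arm and 60.6 CPM in the Trem2/Fcrls/Stab1 arm.

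**Figure D4:**
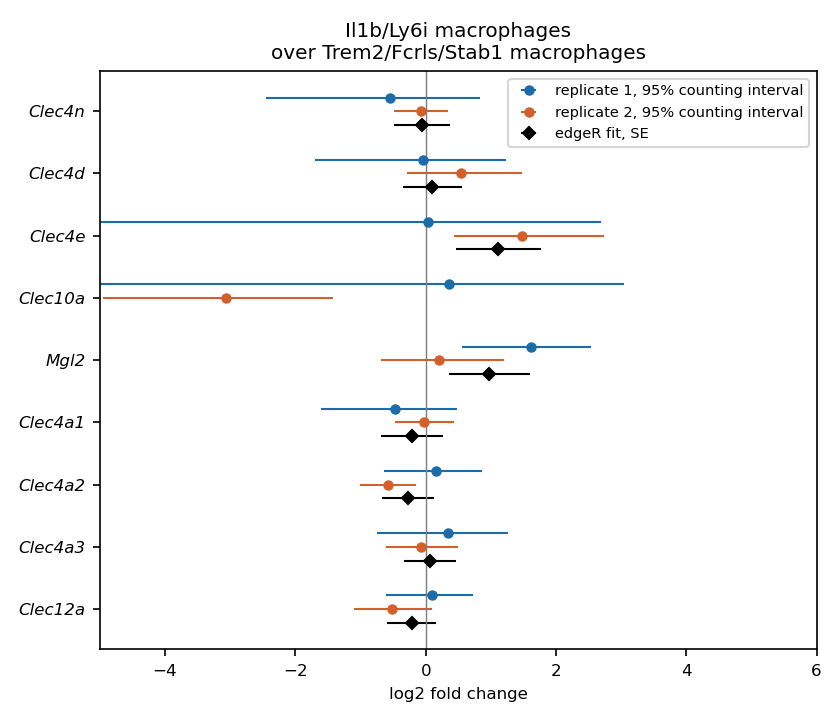
Log2 fold change of each receptor in Il1b/Ly6i over Trem2/Fcrls/Stab1 macrophages within replicate 1 (blue) and replicate 2 (orange), with 95% counting intervals, and in the edgeR fit (black, with SE). Intervals are cut off at -5, and none of the 8 tested receptors passed the test.

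The second comparison set dendritic cells gated on Napsa against C1q macrophages. Their 5 check markers, among them Cd209a and Flt3, summed to 1726 CPM in replicate 1 and 3444 CPM in replicate 2, against 293 and 1472 CPM in the macrophages. Macrophage markers summed to 2017 and 2668 CPM in the Napsa barcodes. In replicate 1 this exceeded their own markers, which goes against a plain dendritic cell name there. The part of these macrophage markers in the receptor values was not tested. Of 2299 tested genes, 11 passed edgeR's test (0.478% called), 3 higher and 8 lower in Napsa cells. None of the 9 receptors passed after Benjamini-Hochberg adjustment in edgeR or DESeq2, while 3 had an unadjusted p under 0.05. The receptors' median log2 fold change was 0.07, against 0.0030 for all tested genes.

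The MGL receptors had the highest estimates in Napsa cells. Clec10a stood at 162 CPM (20 UMIs) in Napsa cells and 11.3 CPM (23 UMIs) in macrophages of replicate 1, and at 79.6 CPM (4 UMIs) and 26.4 CPM (27 UMIs) in those of replicate 2. It was higher in Napsa cells in both libraries, by 14.3 times in replicate 1 (counting interval 7.47 to 27.3) and 3.02 times in replicate 2 (0.77 to 8.67). Mgl2 stood at 348 CPM (43 UMIs) in Napsa cells and 58.5 CPM (119 UMIs) in macrophages of replicate 1, and at 319 CPM (16 UMIs) and 119 CPM (122 UMIs) in those of replicate 2. Its level averaged 333 ± 21.1 CPM in Napsa cells and 88.8 ± 42.8 CPM in macrophages (SD, n = 2 each), and the libraries of the 2 classes did not overlap. The log2 fold changes were 2.94 ± 0.81 (SE) for Clec10a and 2.02 ± 0.59 (SE) for Mgl2, with edgeR adjusted p-values of 0.125 and 0.172. Over the alternatives run, the adjusted p ranged between 0.0157 and 0.593 for Clec10a and between 0.0331 and 0.947 for Mgl2. Clec10a passed with no filter on low counts, and Mgl2 passed without the Ptprc-negative cells in the fit. Mgl2 was detected in 38.0% of Napsa cells of replicate 1 and 15.2% of those of replicate 2, or 25.5% and 16.1% when thinned. T and NK barcodes held it in 11.1% and 1.98%, at median depths of 1339 and 1190 UMIs against 2379.5 and 894.5 UMIs in Napsa cells.

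The DCIR genes and Clec12a had negative estimates in Napsa cells. Clec4a2 stood at 32.4 CPM (4 UMIs) in Napsa cells and 203 CPM in macrophages of replicate 1, and at 239 CPM (12 UMIs) and 350 CPM in those of replicate 2, with a log2 fold change of -1.26 ± 0.56 (SE) and an edgeR adjusted p of 0.542. The lower level was plain in replicate 1, while in replicate 2 the ratio of 0.68 had a counting interval of 0.35 to 1.21. Clec4a1 and Clec12a had log2 fold changes of -1.06 and -0.93, with adjusted p-values of 0.628 and 0.668. Clec12a averaged 105 ± 35.3 CPM in Napsa cells and 222 ± 57.6 CPM in macrophages (SD, n = 2 each). Clec4n and Clec4e stood near the macrophage level, with log2 fold changes of 0.19 and 0.07. The Clec4e value rests on 0 UMIs in Napsa cells of replicate 1 and 9 UMIs in those of replicate 2. The 4 monocyte markers summed to 640 CPM in Napsa cells of replicate 1 and to 2090 CPM in those of replicate 2, and their part in the spread between libraries was not tested.

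Cd209a, a further C-type lectin of dendritic cells and also a check marker of the gate, was 1 of the 11 called genes. It had 18 UMIs (146 CPM) in Napsa cells and 29 UMIs (14.3 CPM) in macrophages of replicate 1, and 8 UMIs (159 CPM) and 19 UMIs (18.5 CPM) in those of replicate 2. Its log2 fold change was 3.34 ± 0.70 (SE), with an edgeR adjusted p of 0.0300, and DESeq2 called it as well. Of the 25 other C-type lectins listed, 4 were tested, and Mrc1, the mannose receptor, had a log2 fold change of -2.06 with an adjusted p of 0.203.

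The third comparison set monocytes against C1q macrophages. The monocytes held 4570 and 4469 CPM of monocyte markers in replicates 1 and 2, beside 4416 and 2554 CPM of macrophage markers. Napsa markers summed to 51.4 and 1738 CPM in them, and T and NK markers to 0 and 497 CPM. The part of these other markers in the receptor values was not tested. Of 2299 tested genes, 6 passed edgeR's test (0.261% called), 2 higher and 4 lower in monocytes. None of the 9 receptors passed in edgeR, and none of the 7 with a DESeq2 result passed there. In edgeR 2 had an unadjusted p under 0.05, Clec4d and Clec12a. The receptors' median log2 fold change was -0.25, against -0.12 for all tested genes.

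Clec4d was higher in monocytes of both libraries without passing the test. It stood at 205 CPM (4 UMIs) in monocytes and 64.4 CPM in macrophages of replicate 1, and at 337 CPM (19 UMIs) and 140 CPM in those of replicate 2. The lowest monocyte value lay above the highest macrophage value. Its log2 fold change was 1.26 ± 0.49 (SE), with an edgeR adjusted p of 0.478. Clec4e stood at 51.4 CPM (1 UMI) in monocytes and 14.7 CPM in macrophages of replicate 1, and at 231 CPM (13 UMIs) and 136 CPM in those of replicate 2, with a log2 fold change of 0.91 ± 0.72 (SE). Clec12a stood at 51.4 CPM (1 UMI) in monocytes and 263 CPM in macrophages of replicate 1, and at 88.7 CPM (5 UMIs) and 182 CPM in those of replicate 2. Clec12a had a log2 fold change of -1.44 ± 0.67 (SE), with an edgeR adjusted p of 0.592. Its values in the classes did not overlap, but 1 UMI carried that of monocytes in replicate 1. The 3 DCIR genes turned round between the libraries. In replicate 1 they were higher in monocytes, with ratios of 2.08 for Clec4a1, 2.02 for Clec4a2 and 2.21 for Clec4a3, and in replicate 2 the ratios were 0.42, 0.61 and 0.40. The monocytes of replicate 1 were 15 cells, and 5 to 8 UMIs carried each of these values.

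The fourth comparison set neutrophils against C1q macrophages, on 15 and 24 neutrophils that carried macrophage UMIs as given above. Of 1043 tested genes, 6 passed edgeR's test (0.575% called), all higher in neutrophils, and Retnlg and Slpi were among them. None of the 8 tested receptors passed in edgeR or DESeq2, while 2 had an unadjusted p under 0.05, Clec4e and Clec4d. The receptors' median log2 fold change was -0.23, against -0.03 for all tested genes.

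The activating pair of Clec4e and Clec4d had the highest estimates in barcodes of the neutrophil gate. Clec4e stood at 71.4 CPM (2 UMIs) in neutrophils and 15.1 CPM (30 UMIs) in macrophages of replicate 1, and at 451 CPM (11 UMIs) and 132 CPM (132 UMIs) in those of replicate 2. The ratio in replicate 2 was 3.41 (counting interval 1.66 to 6.30), and in replicate 1 it was 4.74 (0.55 to 18.7). Its log2 fold change was 2.09 ± 0.83 (SE), with an edgeR adjusted p of 0.556. Clec4d had 3 and 9 UMIs in neutrophils of replicates 1 and 2, or 107 and 369 CPM, against 64.8 and 139 CPM in macrophages. The fitted log2 fold change of Clec4d was 1.34 ± 0.61 (SE), with an edgeR adjusted p of 0.654. Clec4n stood near the macrophage level in both libraries, with a log2 fold change of 0.28 ± 0.70 (SE). Mgl2 had 0 and 1 UMIs (0 and 41.0 CPM) in neutrophils of replicates 1 and 2. The macrophages held 118 UMIs in each library, or 59.3 and 118 CPM. In neutrophils of replicate 1 the 0 UMIs allow up to 107 CPM, which is above the macrophage level there. The macrophage markers of the neutrophil barcodes summed to 11459 CPM in replicate 1 and 3487 CPM in replicate 2, against 3249 and 1723 CPM of neutrophil markers. In both libraries the markers of these barcodes thus go against a plain neutrophil name. Monocyte markers summed to 178 and 1887 CPM in them and Napsa markers to 143 and 2051 CPM. T and NK markers summed to 71.4 and 656 CPM, and Ccr7 markers to 71.4 and 862 CPM. The part of these markers in the receptor values was not tested.

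**Figure D5:**
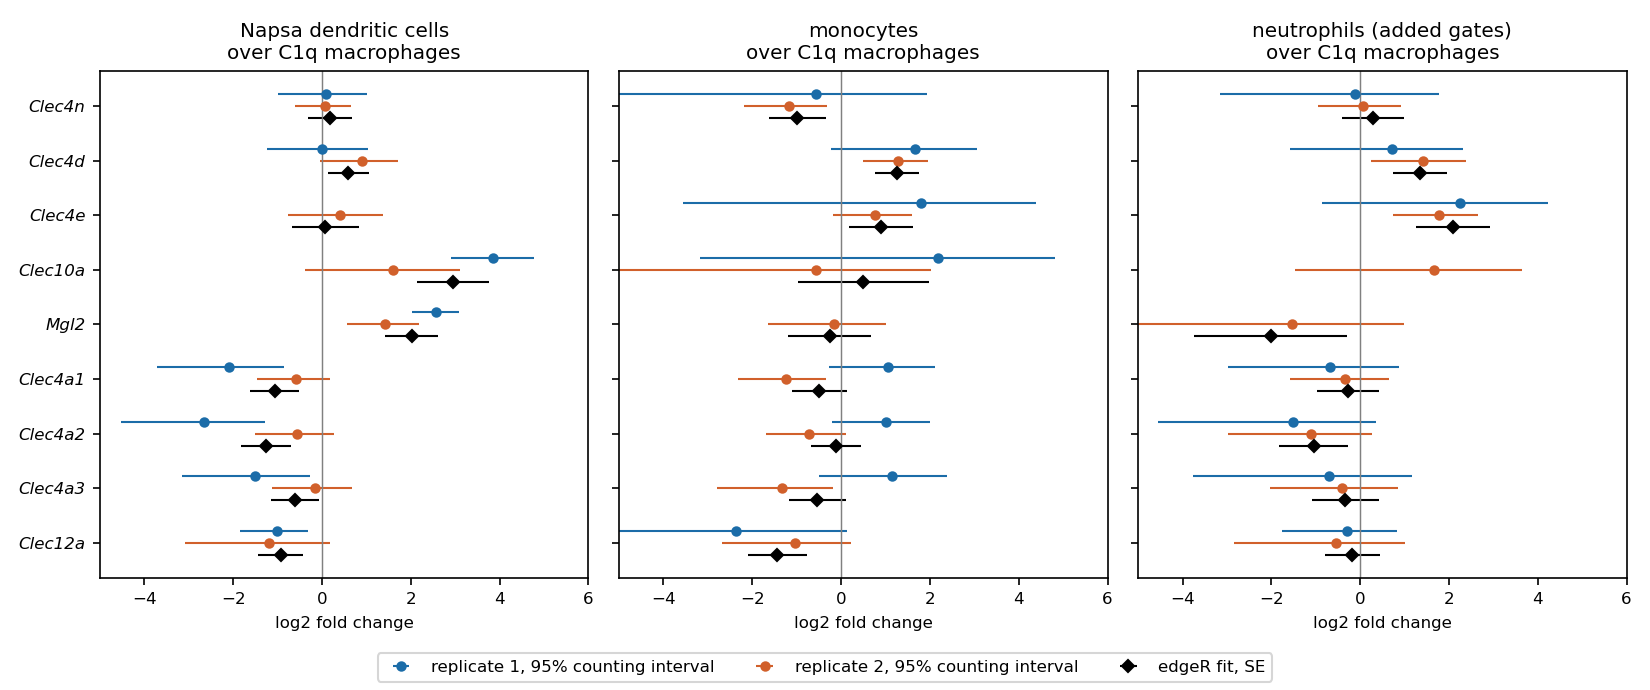
Log2 fold change of each receptor in Napsa dendritic cells, monocytes and neutrophils over C1q macrophages, within replicate 1 (blue) and replicate 2 (orange) with 95% counting intervals, and in the edgeR fit (black, with SE). Intervals are cut off at -5, values with 0 UMIs are not drawn, and none of the receptors passed the test. Clec10a and Mgl2 lay above 0 in Napsa cells of both libraries, and Clec4d and Clec4e above 0 in monocytes and neutrophils of both libraries.

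The fifth comparison set barcodes gated on Ccr7, a receptor of mature dendritic cells, against the Napsa cells, with 12 and 10 against 50 and 46 cells. The Ccr7 barcodes held 3984 and 3353 CPM of mature dendritic cell markers in replicates 1 and 2, but 14748 and 3207 CPM of macrophage markers, so in replicate 1 their markers go against a dendritic cell name. The Napsa cells held 2017 and 2668 CPM of macrophage markers, and the part of these in the comparison was not tested. Of 1043 tested genes, 4 passed edgeR's test (0.384% called), all higher in Ccr7 cells. None of the 8 tested receptors passed in edgeR or DESeq2, while 2 had an unadjusted p under 0.05, Mgl2 and Clec4d. The receptors' median log2 fold change was -0.69, against -0.07 for all tested genes.

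Mgl2 was at 0 UMIs in Ccr7 cells of both libraries, against 43 UMIs (348 CPM) in Napsa cells of replicate 1 and 16 UMIs (319 CPM) in those of replicate 2. Against a limit of 3 UMIs in Ccr7 cells, its Napsa level was 3.90-fold higher in replicate 1 and 1.46-fold in replicate 2. These folds leave out the counting error of the Napsa cells, so they are not strict bounds. Mgl2 had an edgeR adjusted p of 0.174. It passed with no filter on low counts, and its adjusted p ranged between 0.00532 and 0.535 over the alternatives. Clec10a was at 0 UMIs in Ccr7 cells of both libraries too, against 20 and 4 UMIs in Napsa cells of replicates 1 and 2, and it was not tested. Against the same limit its Napsa level was 1.82-fold higher in replicate 1, again without the counting error of the Napsa cells. In replicate 2 its Napsa level lay under the limit. Clec4d had 1 and 0 UMIs in Ccr7 cells and 8 and 13 UMIs in Napsa cells of replicates 1 and 2, with a log2 fold change of -2.58 ± 1.19 (SE) and an edgeR adjusted p of 0.389. Clec4e had 6 UMIs (437 CPM) in Ccr7 cells and 9 UMIs (179 CPM) in Napsa cells of replicate 2, and 0 UMIs in both classes of replicate 1.

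The genes that carry the receptors' signals were tested in the same fits. Of 22 signalling genes of the activating receptors, 4 were tested in the macrophage arms, 10 each in Napsa cells and monocytes, and 4 each in neutrophils and Ccr7 cells. Of these 0 passed in edgeR or DESeq2 in any comparison, and 2 had an unadjusted p under 0.05, both in Napsa cells. These were Fcer1g, the shared adaptor chain, with a log2 fold change of -1.01 ± 0.31 (SE), and the kinase gene Lyn, also at -1.01. Fcer1g had 96 and 98 UMIs in Napsa cells (778 and 1951 CPM) and 4946 and 3187 UMIs in macrophages (2431 and 3110 CPM) of replicates 1 and 2, with an edgeR adjusted p of 0.203. Of 4 phosphatase genes of the inhibitory receptors, at most 2 were tested, and 0 passed in edgeR or DESeq2, with 0 at an unadjusted p under 0.05. Ptpn6, which encodes SHP-1, had log2 fold changes between -0.61 and 0.64 over the 5 comparisons.

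Of 20 genes induced through such receptors, Cxcl2, a neutrophil-attracting chemokine gene, passed in neutrophils over macrophages. It had 20 UMIs (714 CPM) in neutrophils and 315 UMIs (158 CPM) in macrophages of replicate 1, and 64 UMIs (2626 CPM) and 449 UMIs (450.0 CPM) in those of replicate 2. Its log2 fold change was 2.56 ± 0.49 (SE), with an edgeR adjusted p of 0.0233. It was the only gene of the list called by edgeR in any of the 5 comparisons. Ptgs2, the cyclooxygenase-2 gene, had a log2 fold change of 3.0 ± 0.67 (SE) with an edgeR adjusted p of 0.0520, and DESeq2 called it beside Cxcl2. All 7 tested genes of the list had estimates above 0 in neutrophils, with a median of 1.0 against -0.03 for all tested genes. In the macrophage arms 8 of 8 tested genes of the list had estimates above 0 for Il1b/Ly6i macrophages, with a median of 0.85 against -0.03, and 0 passed in edgeR or DESeq2, with 1 at an unadjusted p under 0.05. This arm was gated on UMIs of Il1b, itself an inflammatory gene though not on the list, so the direction is not independent of the gate.

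The receptors' profiles were also set against those of 8906 genes over 14 sums, each of 1 class in 1 library with at least 10 cells. The classes were those of the first gates, with the macrophages in their stricter arms. Il1b/Ly6i macrophages and macrophages with both kinds of UMIs entered from replicate 2 alone. Neutrophil, Ccr7, Xcr1 and Siglech cells did not enter. The sums share libraries, depth and background RNA, so these correlations of log2(CPM + 10) are descriptions. Clec4n ran closest to Fcgr4, an activating Fc receptor gene (r = 0.96), Cd300ld (0.95) and Cfp (0.94). Clec4d ran closest to Mcl1, Btg2 and Fos (0.96, 0.96 and 0.94), and Clec4e to Tmem131 and Gbp3 (0.92 and 0.91). The DCIR genes ran with each other: Clec4a2 had r = 0.96 with Clec4a1 and 0.96 with Clec4a3, and its closest gene was Sdc3 at 0.98. Clec4a1 ran closest to Gabarap (0.97) and Clec4a3 to Vsir (0.98). Clec12a ran closest to Man2b1, C3ar1 and Rgs10 (0.96, 0.94 and 0.93). Mgl2 ran closest to Fam241a, Bcl3 and H2-DMb2 (0.93, 0.88 and 0.87), and Clec10a, with the fewest UMIs, to Zfp263, Spop and Gm36486 at 0.80, 0.78 and 0.78. Among the receptors themselves, the lowest value was -0.02 between Clec10a and Clec4e, and Mgl2 and Clec10a had 0.46.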

How the data were processed

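The deposited files hold UMI counts per gene and barcode for each library, as matrices whose values are whole numbers. Per the submitters' processing notes, Cell Ranger 6.0.1 and Seurat 4.0.1 were used with the mm10 build; the deposited barcodes were taken as they stand. Raw counts were analysed. Cells with at least 300 genes and under 10% mitochondrial UMIs were kept, and Scrublet removed 10 and 36 doublets, 0.419% and 1.27% of replicates 1 and 2. C1q macrophages needed at least 5 C1q UMIs, fewer than 2 lymphoid UMIs and under 2% of UMIs from S100a8 and S100a9. Other classes had fewer C1q UMIs, at least 3 of Tyrobp, Laptm5 and Coro1a together and a single gate, of at least 2 UMIs for monocytes and T and NK cells and 1 for Napsa. Neutrophils, Siglech, Xcr1 and Ccr7 cells and the arms used gates added after the data were seen, with the first 4 set ahead of C1q and at least 2 UMIs for Siglech, Xcr1 and Ccr7. The neutrophil gate asked only for at least 2% of UMIs from S100a8 and S100a9, so barcodes with lymphoid UMIs could enter. The receptors, marker lists and named genes were chosen with earlier results of these data known.

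Counts were summed per class and library for sums of at least 10 cells and scaled by TMM after a low-count filter. All classes with at least 10 cells in each library entered the same fit and shared its estimate of the spread. The T and NK and Ptprc-negative barcodes were among them. The quasi-likelihood test of edgeR (version 4.0.16, under R 4.3.3) had a term for library. Its p-values were adjusted by the Benjamini-Hochberg method over every tested gene, with a threshold of 0.05. This block was used because the classes come from the same 2 libraries. DESeq2 1.42.0 was an alternative. Means are given with SD over the 2 libraries. Counting intervals are exact at 95%, and a count of 0 allows 3 counts. Named genes were all receptors, genes of the lists that passed a test (at most 4 per list and comparison), and for each receptor the 3 genes highest in Pearson's r among those with at least 50 UMIs; Fcer1g, Lyn, Ptpn6, Mrc1 and Ptgs2 were named after their values were seen, and a gene among those most like Clec4e is not reported here. The fit was also run on simulated counts. These had no library effect and the same profile in every class apart from genes changed on purpose, so they do not test the spread seen here.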

Additional observations from a re-analysis of the deposited data

How the results depend on the processing

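Main counts of called genes were 0 for the arms, 11 for Napsa cells, 6 for monocytes, 6 for neutrophils and 4 for Ccr7 cells. Without the replicate block, which rests on classes sharing a library, these were 0, 0, 0, 1 and 0. With no filter on low counts 22, 23, 12 and 9 genes were called outside the arms. DESeq2 called 19 in Napsa cells and 18 in Ccr7 cells. Gates 1 UMI higher gave 2 in the arms, 76 in monocytes and 13 in neutrophils, thinning gave 1 in the arms, and a C1q minimum of 3 gave 2 in neutrophils and 2 in Ccr7 cells. Leaving out Ptprc-negative cells, an alternative chosen after seeing the data, gave 5 in the arms and 26 in Napsa cells. A receptor passed under 2 alternatives, with 3 calls in all: Clec10a in Napsa cells with no filter (2.71, adjusted p 0.0157), Mgl2 in Napsa cells without Ptprc-negative cells (2.18, adjusted p 0.0331) and Mgl2 in Ccr7 cells with no filter (adjusted p 0.00532). The counts of receptors called there were 1 each. The cause was not tested.

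Some log2 fold changes of receptors changed sign. In the arms, Clec4n was 0.11 with no replicate block, 0.058 thinned and 0.018 with the first arms at a minimum of 5 cells (chosen after seeing the data), where Clec4a1 was 0.21 and Clec4a3 -0.27. In Napsa cells, Clec4n was -0.22 with a C1q minimum of 3 and -0.14 with no filter, and Clec4e was -0.12, -0.28 and, with no replicate block, -0.032. In monocytes, Clec10a was -0.56 with gates 1 UMI higher, Mgl2 0.50 thinned, and Clec4a2 0.16 in DESeq2, 0.0021 with no replicate block and 0.027 with the added gates. In neutrophils, Clec4n was -0.59 with no filter and -0.38 thinned.

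With a single library left there is a value and no test. The arms gave -0.59 to 0.20 for Clec4a2, -0.088 to 0.41 for Clec4a3 and -0.52 to 0.13 for Clec12a. Napsa cells gave -1.89 to 0.47 for Clec4e, 1.74 to 3.85 for Clec10a and 1.46 to 2.59 for Mgl2. Monocytes gave -1.11 to 0.021 for Clec4n, -0.013 to 2.74 for Clec10a, -1.17 to 1.16 for Clec4a1, -0.66 to 1.10 for Clec4a2 and -1.21 to 1.28 for Clec4a3. Ccr7 cells gave -0.66 to 0.74 for Clec4a1 and 0.0014 to 0.29 for Clec12a. RLE scaling and keeping doublets each left 42 of 42 receptor fold changes with the same sign and on the same side of the threshold. Gates 1 UMI higher gave no value for Napsa and Ccr7 cells, nor did thinning for Ccr7 cells, because too few cells remained. Depth limits the small classes, where 1 to 3 UMIs often carry a value.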

Other observations

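In barcodes gated on Xcr1, Clec4a1 stood at 913 CPM (8 UMIs from 3 cells) in replicate 2 and 94.5 CPM (5 UMIs from 16 cells) in replicate 1. The C1q genes summed to 12437 CPM in these cells of replicate 2 and 2739 CPM in those of replicate 1, against 8684 and 9842 CPM in C1q macrophages, and their part in the Clec4a1 level was not tested.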
